A study of Mus musculus with 8 samples.

Results

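Gdf5, Gdf6 and Gdf7 encode 3 closely related secreted ligands of the bone morphogenetic protein (BMP) family, and their transcripts were followed in differentiating muscle stem cell cultures that lacked or carried Dnmt3a. Dnmt3a encodes a DNA methyltransferase that sets new methyl marks on cytosines. All probes named for these 3 genes on the array were taken, which gave 5 probes out of 39429, for 3 of 31896 gene names. The cultures were Dnmt3a-KO satellite cells and satellite cells of wild-type (WT) littermates, from mice of 8 weeks labelled as male. Satellite cells are the resident stem cells of muscle, and here they came from the EDL (extensor digitorum longus), a fast muscle of the hindlimb. They were grown for 5 days, replated at matched cell number and kept in differentiation medium, in which they fuse into myotubes, for 2, 4, 5 or 6 days. Each genotype had 1 array on each day, 8 arrays in all. The labels do not say how Dnmt3a was deleted, in which cells, or whether animals were pooled, and they do not say that the days are separate cultures. The p-values for genotype rest on how much the genotype difference varied over the 4 days, and that variation may be partly technical. The limma test used below also draws the variance of each probe toward that of all tested probes.

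GDF5, GDF6 and GDF7 are secreted as dimers and signal through BMP type I and type II receptors to the transcription factors Smad1, Smad5 and Smad9. GDF5 prefers the type I receptor BMPR1B. In the embryo GDF5 and GDF6 pattern joints and cartilage, GDF7 is made by the roof plate of the spinal cord, and all of them are linked to tendon. In adult mouse muscle, Gdf5 is known to be induced after the nerve is cut, where BMP signalling restrains the loss of muscle mass.

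The probes are 60 bases long, and their positions are those of the array files, which name the mouse build mm9. No annotation of that build was used, so no exon or intron is given for them. Gdf5 has a probe at chr2:155768050-155768109 (A_55_P2131831) and another at chr2:155766801-155766860 (A_66_P127070), both on the minus strand and 1190 bases apart, from the end of the first to the start of the next. Gdf6 has 1 probe, at chr4:9789396-9789455 on the plus strand (A_52_P28960). Gdf7 has a probe at chr12:8304980-8305039 (A_66_P126254) and another at chr12:8304754-8304813 (A_55_P2008214), both on the minus strand and 167 bases apart, measured in the same way. None of the 5 probes shares a run of 15 bases with another probe of the array. The sequences of 3 probes are shown, 5′ to 3′ with no base singled out. They are the Gdf5 probe that passed the test below and the pair of Gdf7 probes, of which the first gave signal on every array and the second on none.
Gdf5 A_55_P2131831: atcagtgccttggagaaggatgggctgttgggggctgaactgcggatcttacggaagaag
Gdf7 A_66_P126254: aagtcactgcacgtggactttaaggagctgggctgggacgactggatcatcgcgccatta
Gdf7 A_55_P2008214: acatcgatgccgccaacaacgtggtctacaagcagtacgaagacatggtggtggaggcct
Each of these Gdf7 probes has 55% G and C and holds 4 CG dinucleotides.

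RefSeq's promoter table (build GRCm38.p6) held 1 of the 3 genes, Gdf7. Its 300 bases, 250 before and 50 after the annotated start, lie on the minus strand at chr12:8301905-8302204 of that build, which cannot be set beside the mm9 positions above. It is shown because Dnmt3a acts on CG dinucleotides, which are in capitals.
Gdf7 promoter: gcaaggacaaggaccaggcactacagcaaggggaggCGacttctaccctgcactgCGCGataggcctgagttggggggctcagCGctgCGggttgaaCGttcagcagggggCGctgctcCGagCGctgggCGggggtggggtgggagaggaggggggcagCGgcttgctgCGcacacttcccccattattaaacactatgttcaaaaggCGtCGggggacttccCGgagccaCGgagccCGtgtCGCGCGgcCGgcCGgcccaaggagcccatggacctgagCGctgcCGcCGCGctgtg
The window holds 26 CG dinucleotides, against a median of 7 over 32851 promoters of the same length, and 16.9% of those promoters hold at least as many. The E-box letters CANNTG, read on both strands, are absent from this window and present in 72.3% of all promoters. Methylation was not measured in these samples.

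The signal is the scanner's processed intensity, divided by the 75th percentile of its array and given in percent of it. That percentile ran from 744 to 1482 intensity units on the Dnmt3a-KO arrays and from 719.5 to 1528 on the WT arrays, and 61.6% to 67.4% of spots were well above background. Dnmt3a itself had 24.0, 52.5, 54.2 and 38.9% in Dnmt3a-KO cells on days 2, 4, 5 and 6, against 51.9, 265, 250 and 204% in WT cells. The Dnmt3a-KO array was the lower on each day, by a mean of -2.01 ± 0.60 log2 units (SD over 4 days, limma adjusted p = 0.10). The labels do not tell which exons were removed, and a probe outside them would not check the genotype. Both day 2 arrays were on a slide, a scanner model and a software version of their own. Transcripts of 4 Y-linked genes (5 probes) were detected on the day 2 arrays of both genotypes but on 0 of the 6 later arrays, and 2 Xist probes showed the reverse, although all mice are labelled male. Day 2 thus stands apart from days 4 to 6, although each day and each slide holds both genotypes, and the results on the 3 ligands are given with and without it.

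The first question was whether the 3 ligands differ between Dnmt3a-KO and WT cells. Gdf5 signal was about 5 times higher in Dnmt3a-KO cells by both of its probes and Gdf7 signal about 4 times higher, each on 4 of 4 days. Gdf6 signal in Dnmt3a-KO cells was 2.26 times that of WT cells on day 2 and 1.01 to 1.22 times on days 4 to 6. Of the 4 probes that could be tested, 1 Gdf5 probe passed the threshold of 0.05 after Benjamini-Hochberg adjustment over 24427 probes, while the other Gdf5 probe and the Gdf7 probe fell just outside it. Probes higher in Dnmt3a-KO cells at that threshold made up 0.0123% of all probes tested, 3 in number, and those lower 0.0205%, 5 in number.

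Gdf5, whose product shapes synovial joints, gave 12.4, 95.5, 55.8 and 73.7% of the 75th percentile in Dnmt3a-KO cells on days 2, 4, 5 and 6, against 2.38, 14.2, 14.5 and 12.2% in WT cells (A_55_P2131831). The Dnmt3a-KO array was the brighter on each day, and the groups overlap in that the Dnmt3a-KO array of day 2 lies below the WT arrays of days 4 and 5. The mean was 59.4 ± 35.3% in Dnmt3a-KO cells and 10.8 ± 5.71% in WT cells (SD, n = 4 days each). On the log2 scale the daily differences were 2.38, 2.75, 1.94 and 2.60, with a mean of 2.42 ± 0.35 (SD over 4 days), a 5.35-fold higher signal (limma adjusted p = 0.046). Without day 2 the mean was 2.43 ± 0.43. The call was lost when any 1 of the 4 days was left out, with limma adjusted p between 0.11 and 0.29, and none of the 24427 probes then passed.

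The other Gdf5 probe (A_66_P127070) gave 85.3, 394, 237 and 353% in Dnmt3a-KO cells, against 11.4, 66.3, 72.8 and 64.8% in WT cells, on the same days. All 4 Dnmt3a-KO arrays lay above all 4 WT arrays, a separation in this direction seen for 0.913% of the probes tested. The mean was 267 ± 138% in Dnmt3a-KO cells and 53.8 ± 28.5% in WT cells (SD, n = 4 days each). The daily log2 differences were 2.90, 2.57, 1.71 and 2.45, and their mean of 2.40 ± 0.50 (SD over 4 days) is a 5.30-fold higher signal that did not pass the threshold (limma adjusted p = 0.056). Without day 2 the mean was 2.24 ± 0.47. The probes of Gdf5 differed from each other in this effect by 0.015 ± 0.35 log2 units.

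Gdf7, known from the roof plate of the spinal cord, gave 12.4, 52.8, 32.1 and 41.6% in Dnmt3a-KO cells on days 2, 4, 5 and 6, against 3.92, 10.6, 10.8 and 9.26% in WT cells (A_66_P126254). Again all 4 Dnmt3a-KO arrays lay above all 4 WT arrays, although the lowest Dnmt3a-KO value, on day 2, exceeded the highest WT value by 14.8%, within the combined spot error of 15.2% that the scanner software gives. The mean was 34.7 ± 17.2% in Dnmt3a-KO cells and 8.63 ± 3.21% in WT cells (SD, n = 4 days each). The daily log2 differences were 1.66, 2.32, 1.58 and 2.17, with a mean of 1.93 ± 0.37 (SD over 4 days), a 3.82-fold higher signal that did not pass the threshold (limma adjusted p = 0.055). Without day 2 the mean was 2.02 ± 0.39.

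The second Gdf7 probe was not well above background on any of the 8 arrays. It read between 0.187 and 0.953% in Dnmt3a-KO cells and between 0.24 and 1.20% in WT cells, with spot errors of 49.7% to 373%. It was not tested and gives no fold, so the Gdf7 difference rests on 1 of the gene's 2 probes. A probe for a transcript of the opposite strand, 318 bases from a Gdf5 probe, was likewise not well above background on any array.

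Gdf6, a relative of Gdf5 with roles in joints and the skull, gave 63.2, 105, 142 and 129% in Dnmt3a-KO cells on days 2, 4, 5 and 6, against 28.0, 105, 116 and 122% in WT cells. The groups overlap, and the values of days 4 to 6 lie close together in both genotypes. The mean was 110 ± 34.4% in Dnmt3a-KO cells and 92.7 ± 43.7% in WT cells (SD, n = 4 days each). The daily log2 differences were 1.18, 0.011, 0.29 and 0.071, and their mean of 0.39 ± 0.54 (SD over 4 days) did not pass the threshold (limma adjusted p = 0.51). Without day 2 the mean fell from 0.39 to 0.12 ± 0.15, so its size depends largely on day 2.

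**Figure D1:**
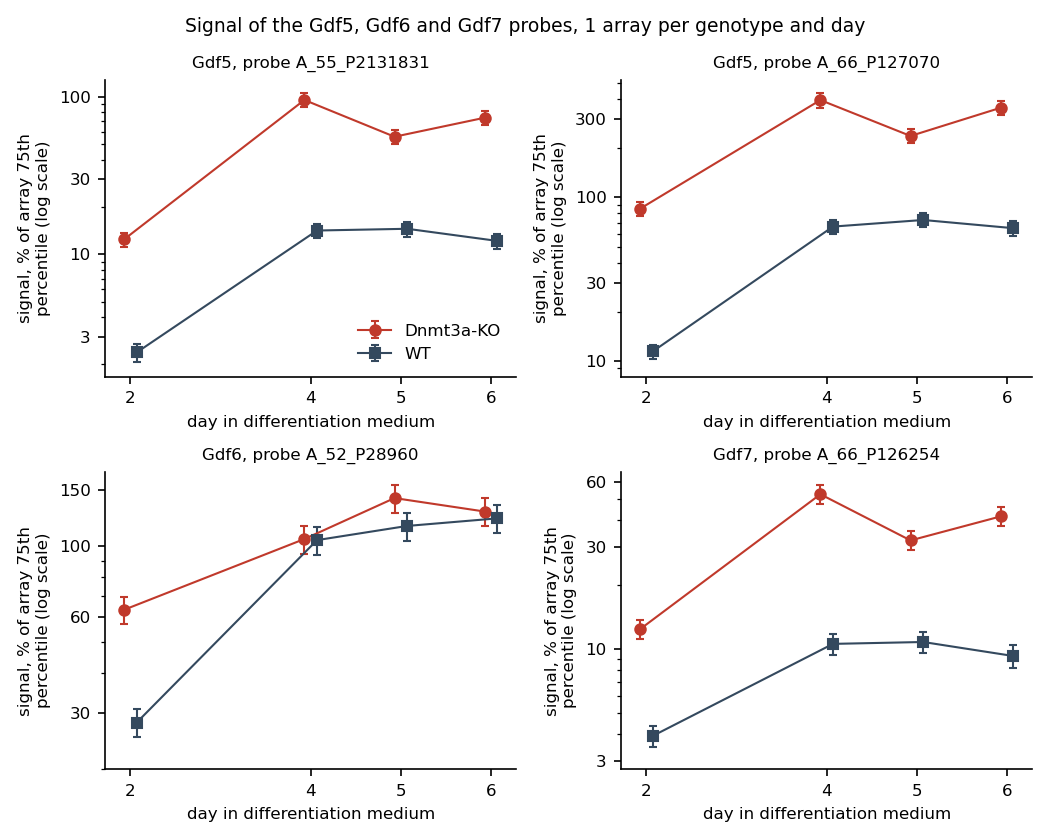
Signal of the 4 measured probes on each day, in percent of the array's 75th percentile on a log axis, with Dnmt3a-KO as red circles and WT as dark squares. Each point is 1 array and its bar is the spot error of the scanner software. The Dnmt3a-KO points lie above the WT points on every day for Gdf5 and Gdf7, while the Gdf6 points part on day 2 and come together from day 4.

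An exact two-sided sign-flip permutation test of the 4 daily differences gave p = 0.13 for each of the 4 measured probes, Gdf6 included. This is the smallest value that 4 pairs allow in this test, so the test cannot reach 0.05 for a single probe, whatever the size of the differences. With the slide in place of the day as a block, limma adjusted p was 0.024 and 0.032 for the Gdf5 probes, 0.036 for Gdf7 and 0.54 for Gdf6. Within the slide of day 2 and within that of day 6 the differences are the single values of those days, and days 4 and 5 share the remaining slide.

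**Figure D2:**
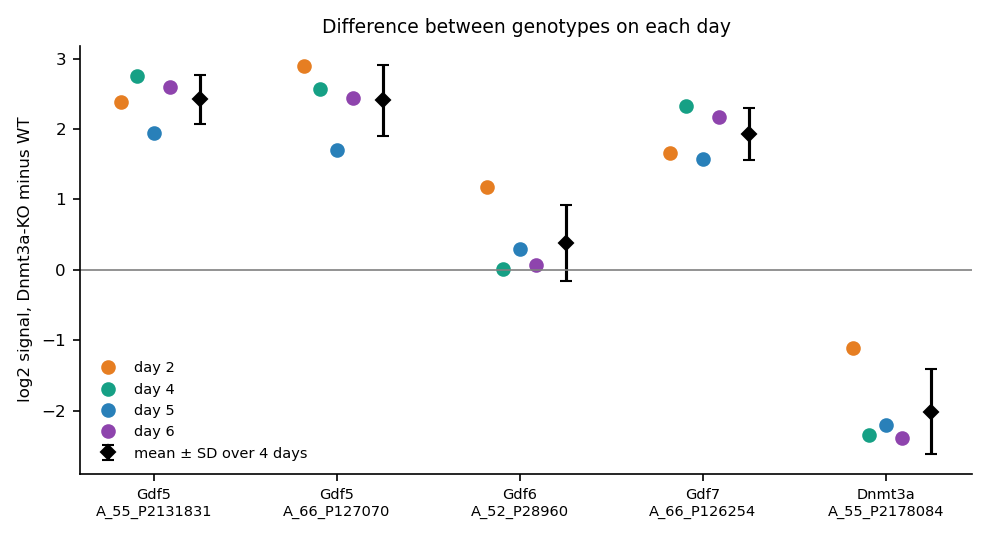
Difference in log2 signal, Dnmt3a-KO minus WT, for the 4 measured Gdf probes and Dnmt3a. Coloured circles are single days and black diamonds the mean with its SD over 4 days. The Gdf5 and Gdf7 circles lie between 1.58 and 2.90, those of Gdf6 between 0.011 and 1.18, and those of Dnmt3a between -2.39 and -1.11.

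The effects were then compared between the ligands, day by day. The Gdf5 effect (A_66_P127070) exceeded that of Gdf6 by 2.02 ± 0.54 log2 units (SD over 4 days), and by at least 1.41 on each day. The Gdf7 effect exceeded that of Gdf6 by 1.54 ± 0.83, with 0.48 on the day of the smallest gap. The Gdf5 effect exceeded that of Gdf7 by 0.47 ± 0.52, again on 4 of 4 days. All 3 comparisons gave p = 0.13 in the exact sign-flip permutation test, or 0.17 adjusted over the 4 pairs of probes compared. With 4 days this test cannot give a smaller p than 0.13, so it could not pass and does not decide whether the effects differ. Day 5 held the smallest difference for both Gdf5 probes and for Gdf7.

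Set against the whole array, the effects of Gdf5 and Gdf7 lie at the far end. Ordered by the size of the genotype effect from high to low, the Gdf5 probes stood at places 2 and 3 of 24427, Gdf7 at place 6 and Gdf6 at place 986. The median effect of all probes was -0.0098 with an SD of 0.27. A signal at least 2-fold higher in Dnmt3a-KO cells on all 4 days was found for 15 probes, 0.0614% of those tested, and 3 of them are the Gdf5 probes and the Gdf7 probe. Being higher on 4 of 4 days, as all 4 measured Gdf probes were, is common, at 10.9% of probes.

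**Figure D3:**
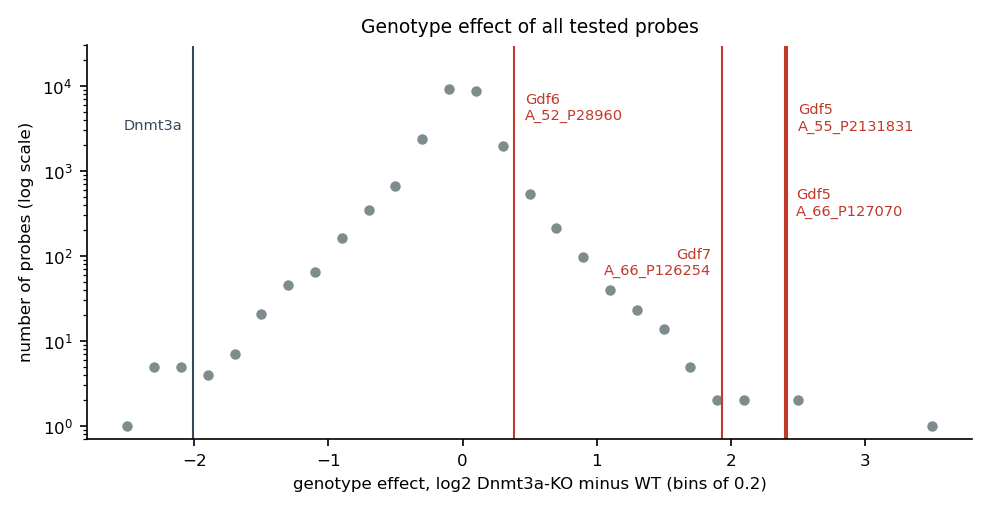
Number of probes (log axis) by genotype effect in bins of 0.2 log2 units, Dnmt3a-KO minus WT, over 24427 probes. Grey points are bins that hold at least 1 probe, and vertical lines mark the 4 Gdf probes and Dnmt3a. The lines of Gdf5 at 2.42 and 2.40 and of Gdf7 at 1.93 lie where bins hold few probes, and that of Gdf6 at 0.39 lies on the shoulder of the main peak.

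The next question was how the ligands move over the days of differentiation. All 4 measured Gdf probes were higher from day 4 on than on day 2, and their slope over days 2 to 6 passed the threshold. The slope was 0.62 and 0.57 log2 units per day for the Gdf5 probes (limma adjusted p = 0.023 and 0.020), 0.42 for Gdf6 (limma adjusted p = 0.015) and 0.37 for Gdf7 (limma adjusted p = 0.036). The slope model counts the pair of arrays of a day as separate samples although they share a slide, so these p-values are too small to the extent that the arrays of a day vary together. Of all probes, 25.5% passed in this direction and 19.4% in the other, so a passing slope is frequent on these arrays. Without day 2 none of the 24427 probes passed in limma (1938 had an unadjusted p under 0.05). The slopes of the Gdf5 probes were then -0.15 and -0.047, that of Gdf7 -0.13 and that of Gdf6 0.13. Without day 5, 417 probes passed and none of the 4 Gdf probes did, with limma adjusted p between 0.066 and 0.10. The step after day 2 cannot be told apart from the slide, scanner and sex-linked transcripts of the day 2 arrays.

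The step between days 2 and 4 was seen in both genotypes. Gdf5 signal on day 4 was 7.68 and 4.62 times that of day 2 in Dnmt3a-KO cells by its probes, against 5.95 and 5.80 times in WT cells. For Gdf7 it was 4.27 times in Dnmt3a-KO cells and 2.69 times in WT cells. For Gdf6 it was 1.67 times in Dnmt3a-KO cells and 3.74 times in WT cells. These ratios compare single arrays and have no test. After day 4 the WT cells kept within 0.26 log2 units for each of the measured probes, and the Dnmt3a-KO cells spanned up to 0.78. In no probe of the array did the slope differ between genotypes at the threshold (limma, 0% of 24427 probes, with 254 at an unadjusted p under 0.05). The difference in slope, Dnmt3a-KO minus WT, was -0.0055 ± 0.35 and -0.18 ± 0.29 log2 units per day for the Gdf5 probes, 0.076 ± 0.25 for Gdf7 and -0.26 ± 0.16 for Gdf6 (SE).

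Ordered by level, the 8 samples line up alike for Gdf7 and the brighter Gdf5 probe (A_66_P127070). By the other Gdf5 probe, Dnmt3a-KO cells of day 2 came below WT cells of days 4 and 5. For each of these probes, Dnmt3a-KO cells of day 4 were the highest, then those of day 6 and of day 5, and WT cells of day 2 the lowest. With the brighter Gdf5 probe, days 4 and 6 of Dnmt3a-KO cells differed by 11.4%, less than the combined spot error of 14.1%. WT cells of days 4, 5 and 6 followed each other with steps of 2.26% and 9.75%, also within that error. For Gdf6 the 6 samples of days 4 to 6 formed an unbroken run, with Dnmt3a-KO cells of day 5 first. No neighbours in that run differed beyond the spot error, but the whole run spanned 105 to 142%. Samples further apart in it were not set against that error. Below this run came Dnmt3a-KO cells and then WT cells of day 2. Since each sample had 1 array, the spot error covers the measurement of a spot and not the spread between cultures.

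Which other transcripts follow the same pattern was asked of the 6416 genes whose log2 signal spanned at least 1 over the 8 arrays. Gdf5 and Gdf7 were each other's nearest neighbour in this respect, with Pearson's r = 0.98. After Gdf7, the genes most like Gdf5 were Dnaic1 (r = 0.98), which encodes a dynein chain of motile cilia, Steap3 (r = 0.97), a ferrireductase, Eps8l2 (r = 0.96) and Efna1 (r = 0.96), an ephrin ligand. After Gdf5, those most like Gdf7 were Steap3 (r = 0.97), Mmp3 (r = 0.97), a matrix metalloproteinase, Tuft1 (r = 0.96) and P2ry10b (r = 0.96). Gdf6 took place 393 for Gdf5 (r = 0.77) and 699 for Gdf7 (r = 0.68). The genes most like Gdf6 were Igfbp6, Eno2, Slc9a3r2, Mfsd4b5 and Thbd, all with r = 0.99. An r over 0.9 was held by 0.764% of these genes with Gdf5, 0.499% with Gdf7 and 12.7% with Gdf6. These values describe 8 arrays that share the split by genotype and the step after day 2, and they carry no test.

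The other ligands of the family are next. The list held 18 BMP and GDF ligands, of which 10 could be tested, and 0 passed in either direction. At an unadjusted p under 0.05 in limma, 2 were higher and 0 lower, where all probes give 6.22% higher and 6.63% lower. The same shares stand beside the unadjusted counts of every list that follows. The median effect was 0.17, against -0.0098 over all probes, and 0.11 without day 2. Bmp2, a ligand for bone and cartilage formation, was the highest, with 21.8 to 121% in Dnmt3a-KO cells (median 93.6%) and 9.95 to 58.7% in WT cells (median 49.7%). Its difference of 0.999 ± 0.32 (SD over 4 days) was positive on 4 of 4 days and did not pass (limma adjusted p = 0.11). Gdf9, best known from the oocyte, differed by 0.40 ± 0.27, and at the other end Gdf1 by -0.23 ± 0.43 and Gdf3 by -0.23 ± 0.24. None of the 10 tested ligands of the list reached the effect of Gdf7.

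Among 12 receptors and co-receptors, all measured, 0 passed in either direction (1 higher and 3 lower unadjusted) and the median effect was -0.076, or -0.18 without day 2. Ror2, a receptor tyrosine kinase that can pair with BMPR1B, was the lowest, at 2.87 to 27.1% in Dnmt3a-KO cells (median 17.5%) and 8.67 to 51.0% in WT cells (median 42.4%). Its difference was -1.25 ± 0.37 on 4 of 4 days (limma adjusted p = 0.11). Acvrl1, a type I receptor of endothelial cells, differed by -0.62 ± 0.75, Acvr2b, a type II receptor, by 0.40 ± 0.15 and Hfe2, the co-receptor hemojuvelin, by 0.15 ± 0.14. Bmpr1b falls outside the naming rule and was chosen after its values were seen, as the receptor that GDF5 prefers. It was dim in both genotypes, with 5.31 to 10.4% in Dnmt3a-KO cells and 8.78 to 10.9% in WT cells, and differed by -0.48 ± 0.42 (limma adjusted p = 0.36).

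Of 18 antagonists and extracellular modulators, 11 could be tested, 0 passed in either direction (0 unadjusted) and the median effect was 0.023. It was -0.20 without day 2 and -0.047 without day 6, so its sign turned. Fstl3, a follistatin relative, differed by 0.18 ± 0.41, Fstl1 by -0.57 ± 0.71 and Crim1 by -0.36 ± 0.77. Nog, which encodes the BMP antagonist noggin and was likewise chosen after its values were seen, differed by 0.039 ± 0.22.

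Of 10 Smads and Smad regulators, all measured, 0 passed in either direction (1 higher unadjusted), with a median effect of 0.058. Smad9, a Smad that BMP receptors phosphorylate, differed by 0.43 ± 0.25, Skil, a corepressor, by 0.25 ± 0.21, Smad1 by -0.16 ± 0.096 and Smurf2, a ubiquitin ligase, by -0.21 ± 0.38. Of 13 target genes of BMP-Smad signalling, 12 could be tested, 0 passed in either direction (2 higher and 2 lower unadjusted) and the median effect was 0.064. It was -0.076 without day 2, 0.0057 without day 5 and 0.12 without day 6, so it has no settled sign. Id2 differed by 0.38 ± 0.13 on 4 of 4 days and Id4 by 0.38 ± 1.08, which became -0.15 without day 2. The Id genes encode inhibitors of basic helix-loop-helix factors. Msx1, a homeobox gene, differed by -0.37 ± 0.21 and Hey1 by -0.35 ± 0.15.

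Because Gdf5 is known to be induced in denervated muscle, 10 genes that respond to denervation were set beside it. All were measured and 0 passed in either direction. At an unadjusted p under 0.05 in limma, 4 of the 10 were higher and 0 lower. Over all probes 6.22% were higher and 6.63% lower at that level, and the list was chosen with earlier results of these data known. The median effect was 0.14, or 0.12 to 0.18 with a day left out. Gadd45a, a stress gene, had 1118 to 1685% in Dnmt3a-KO cells and 737 to 977% in WT cells. Its groups did not overlap, a separation in this direction seen for 0.913% of the probes tested. Gadd45a differed by 0.74 ± 0.15 on 4 of 4 days (limma adjusted p = 0.10). Fbxo32, the ubiquitin ligase atrogin-1, differed by 0.44 ± 0.31, Myog, the regulator myogenin, by -0.025 ± 0.12 and Ncam1, a cell adhesion molecule, by -0.17 ± 0.44.

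**Figure D4:**
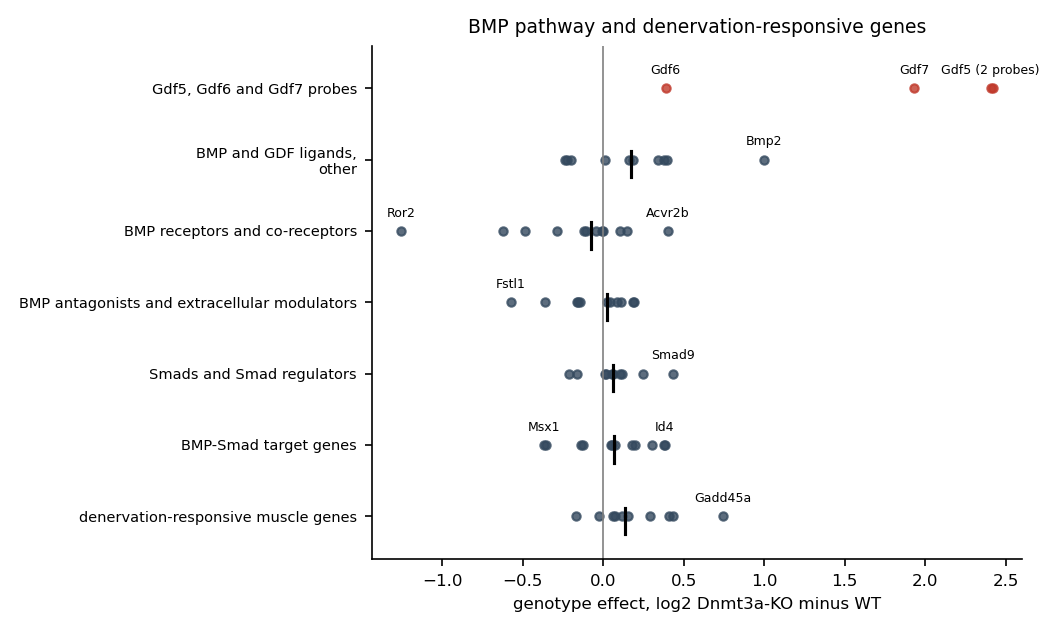
Genotype effect (log2 Dnmt3a-KO minus WT) of the 4 measured Gdf probes in red and of every tested gene of 6 lists in dark grey, 1 point per gene, with a short bar at each list's median. Some genes at the ends of the lists are named. The Gdf5 and Gdf7 points lie to the right of every gene of the lists, and Gdf6 lies among them.

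The labelled cell type was checked by its markers. Of 10 myogenic genes, 8 were tested and 0 passed (2 lower unadjusted), with a median effect of -0.020, or -0.081 without day 2 and 0.0059 without day 5. Myod1, Myog, Des and Tnnt3 were well above background on all 8 arrays, while Myf5 was on none. Tnnt3 differed by -0.0037 ± 0.15, Myod1 by 0.026 ± 0.14, Cdh15 by -0.22 ± 0.14 and Pax7, the satellite cell factor, by -0.74 ± 0.47 (limma adjusted p = 0.29). The summed signal of the list was 42337 to 44983% in Dnmt3a-KO cells and 39649 to 49484% in WT cells. In cultures, more cells of a kind and more RNA per cell cannot be told apart.

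Other cell types, some of which make these ligands elsewhere, were followed through their own markers, and 0 genes of these 6 lists passed in either direction. Of the joint, cartilage and tendon markers, 10 of 12 were tested, with 2 lower unadjusted. Their median effect was 0.045, but -0.091 without day 2 and -0.069 without day 5. Scx, the tendon transcription factor scleraxis, was well above background on all 8 arrays, at 3267 to 7601% in Dnmt3a-KO cells and 3752 to 6321% in WT cells, and differed by -0.084 ± 0.39. It makes up most of the list's sums of 3360 to 7681% in Dnmt3a-KO cells and 3871 to 6393% in WT cells. Tnmd, another tendon marker, was not well above background on any array, Comp differed by 0.20 ± 0.57, Mkx by 0.17 ± 1.29, Col2a1 by -0.71 ± 0.67 and Matn3 by -0.34 ± 0.12. Of the Schwann and roof plate markers, 7 of 9 were tested, with a median of -0.16 (-0.30 without day 2, 0.030 without day 4) and sums of 68.4 to 131% in Dnmt3a-KO cells and 73.1 to 159% in WT cells. Of the roof plate genes, Lmx1a and Wnt3a were not well above background on any array, while Wnt1 was on all 8 arrays. Wnt1 gave 26.1 to 55.2% in Dnmt3a-KO cells and 29.1 to 53.6% in WT cells. The difference was -0.097 ± 0.095 for Wnt1, -0.53 ± 1.17 for S100b and -0.45 ± 1.03 for Ngfr.

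Of the fibro-adipogenic markers, 6 of 8 were tested, 2 of them lower unadjusted. Their median was 0.12, but -0.27 without day 2 and 0.37 without day 4, and by day it was 0.50, -0.78, 0.14 and -0.55, with sums of 577 to 2184% in Dnmt3a-KO cells and 654 to 1893% in WT cells. Dcn differed by 0.74 ± 0.99, Pdgfra by 0.48 ± 0.63, Pi16 by -1.06 ± 0.92 and Col3a1 by -0.92 ± 0.65, and Lum and Dpt were not well above background on any array. Of the smooth muscle and pericyte markers, 4 of 5 were tested, with sums of 244 to 604% in Dnmt3a-KO cells and 120 to 527% in WT cells. Their median was 0.10 over the 4 days, -0.48 without day 2 and 0.35 without day 4, and by day it was 1.75, -1.20, 0.13 and -0.54. Rgs5 differed by 0.40 ± 1.42, Cspg4 by 0.29 ± 0.89, Cnn1 by -0.81 ± 2.41 and Pdgfrb by -0.083 ± 1.75. Of 5 endothelial markers 3 were tested (1 lower unadjusted), with a median of -0.089, or -0.15 without day 2 and -0.022 without day 5, and sums of 247 to 389% in Dnmt3a-KO cells and 232 to 397% in WT cells. Pecam1 differed by 0.19 ± 0.43, Kdr by -0.089 ± 0.19 and Flt1 by -1.52 ± 1.41, and Tie1 was not well above background on any array. Of 5 leukocyte markers 4 were tested, with a median of -0.14 and sums of 871 to 2104% in Dnmt3a-KO cells and 1008 to 2060% in WT cells. Emr1 differed by 0.077 ± 0.22, Csf1r by -0.094 ± 0.089, Itgam by -0.19 ± 0.16 and Ptprc by -0.23 ± 0.27, and Cd68 was not well above background on any array. The part of these cell types in the Gdf5 and Gdf7 differences was not tested.

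The last question was whether genes beside the ligands on their chromosomes differed as well. Within 500 kb of the Gdf5 probes, 28 genes were tested, 0 passed in either direction, and the median effect was 0.011. At an unadjusted p under 0.05 in limma, 2 were higher and 4 lower, where all probes give 6.22% and 6.63%. The nearest measured genes toward lower positions were Uqcc1 at 92.8 kb, a factor of respiratory complex assembly, with 0.018 ± 0.065 log2 units, and the transcript ENSMUST00000109638 at 116 kb with 0.21 ± 0.31. Toward higher positions they were Cep250 at 57.6 kb, a centrosomal protein, with -0.17 ± 0.32, and 6430550D23Rik at 60.2 kb with -0.0055 ± 0.74. The lowest of the 28 was Myh7b, a myosin heavy chain 308 kb away named after its value was seen, with -1.63 ± 0.70 (limma adjusted p = 0.17).

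Within 500 kb of the Gdf7 probe 9 genes were tested, 0 passed in either direction and the median effect was 0.0085, between -0.19 and 0.30. Ldah, a lipid droplet hydrolase at 12.6 kb toward lower positions, differed by -0.038 ± 0.090. Toward higher positions Hs1bp3 at 45.4 kb differed by 0.30 ± 0.24 and BC106175 at 181 kb by -0.086 ± 0.23. Gdf7 and Dnmt3a lie on the same chromosome, with 4.39 Mb between their probes. Of the 24 genes tested in that stretch 0 passed in either direction, and the median effect was -0.029, between -0.48 and 0.47. In limma 3 were higher and 1 lower at an unadjusted p under 0.05, where all probes give 6.22% and 6.63%. Near Gdf6 only 2 genes were tested, ENSMUST00000084915 at 287 kb with 0.14 ± 0.17 and Asph at 226 kb with -0.064 ± 0.53, both toward lower positions.

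**Figure D5:**
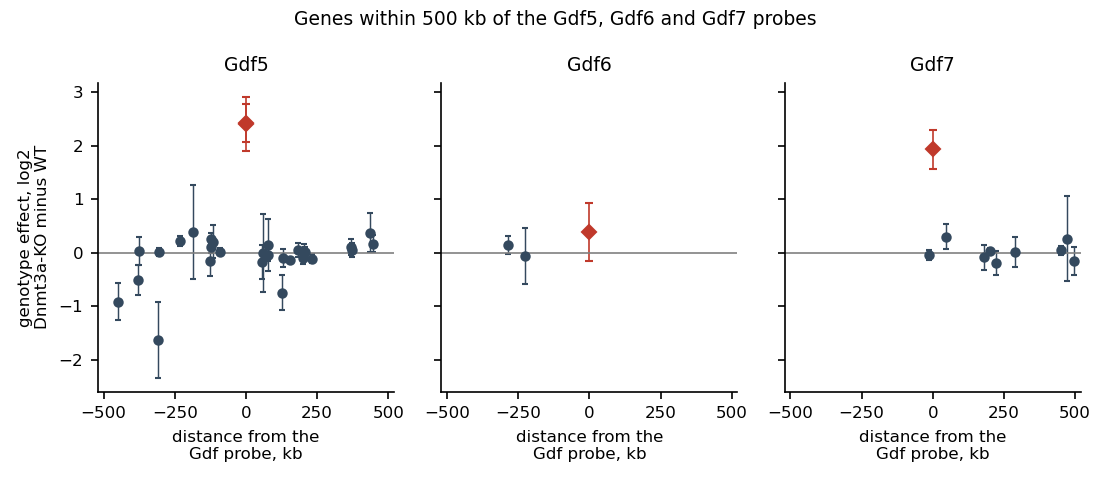
Genotype effect (log2 Dnmt3a-KO minus WT) of genes within 500 kb of the Gdf5, Gdf6 and Gdf7 probes, by distance in kb, with negative distances toward lower positions. Red diamonds are the Gdf probes, dark circles 1 probe per neighbouring gene, and bars the SD over 4 days. The neighbours of Gdf7 lie between -0.19 and 0.30 and those of Gdf5 between -1.63 and 0.39, below the ligands at 1.93 and 2.42.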

How the data were processed

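RNA of 8 samples was hybridised to 1-colour (Cy3) Agilent mouse arrays, 1 per genotype and day. The deposited intensity files are scanner output of Agilent Feature Extraction, version 11.0.1.1 for day 2 and 9.5.3.1 for days 4 to 6 per the file headers, while the submitters' processing notes name 9.5. The authors' deposited value table holds a score that equals 100 times the processed signal over the array's 75th percentile, rounded, within 1 for 100% of spots, with column medians of 6 or 7.

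The processed intensity was divided by each array's 75th percentile over 43020 non-control spots, raised to a floor of 0.00763 and log2 transformed. Outlier spots were left out and spots of a probe averaged, and 24427 probes well above background on at least 4 arrays were tested. Symbols were updated through RefSeq accessions for 26055 probes. limma 3.58.1 in R 4.3.3 (lmFit, eBayes, Benjamini-Hochberg, threshold 0.05) tested genotype with day as a factor, which leaves 3 residual degrees of freedom, the slope per day with genotype, and their interaction. The steps were tested on simulated data. Lists used 1 probe per gene, the brightest.

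Named were every Gdf5, Gdf6 and Gdf7 probe, Dnmt3a, list members past the threshold, the 2 highest and 2 lowest effects of each list, the 5 genes most correlated with each ligand, the 2 nearest neighbours per side within 500 kb, and defining cell type markers. Some genes that this rule names are not reported here. The members and the 13 gene lists were chosen with earlier results of these data known. Each day is 1 pair of arrays, so day is the block of the genotype test, and the slope test has none (5 residual degrees of freedom). The number of arrays limits the precision.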

Additional observations from a re-analysis of the deposited data

Results flagged for a closer look

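Single arrays that stood far from the other 3 of their genotype were sought by the gap to the nearest array over the range, by Dixon's criterion at 95%. Of 15 groups examined for the 4 measured Gdf probes and Dnmt3a, 6 stood out, and all 6 were day 2. The criterion's rate of about 1 in 20 is for replicates, and it does not hold here. Each group is 4 days of a course, and the groups share arrays. In WT cells the log2 scaled signal of day 2 was -5.39 for Gdf5 A_55_P2131831, against -3.04 to -2.78 on the later days. It was -3.13 for Gdf5 A_66_P127070, against -0.62 to -0.46. It was -1.84 for Gdf6, against 0.064 to 0.29, and -4.67 for Gdf7, against -3.43 to -3.21. Dnmt3a in WT cells was -0.95 on day 2, against 1.03 to 1.41 later, and its difference, Dnmt3a-KO minus WT, was -1.11 on day 2, against -2.39 to -2.21. The Dnmt3a-KO arrays of day 2 were low as well without passing this limit. Slide, scanner, software version and sex-linked transcripts also set day 2 apart, and their part in these values was not tested.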

How the results depend on the processing

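The direction of the genotype effect held in 18 of 18 alternatives for Gdf5 A_55_P2131831 and 19 of 19 for A_66_P127070. It held in 19 of 19 for Gdf6 and 18 of 19 for Gdf7. Alternatives that change only the block, the filter or the variance leave the effect as it is, so they could not change its direction. For the Gdf5 probes and Gdf7 the side of the threshold did not hold. The number of probes past it in limma was 8, and 18 with median scaling, 42 with probes detected on all 8 arrays, 2 with 1 probe per gene, 111 with trended robust variance, 134 with day as a random block, 23 with slide as the block and 105 with the repaired normexp below. It was 0 with quantile scaling (3159 at an unadjusted p under 0.05), normexp (10215), a floor 5 times higher (3268), no filter (3686), the deposited table (3037), day as a number (1123) and each day left out (1794 to 3163). Without the replicate block, that is without pairing by day, it was 0 (489), with the effects at 2.42, 2.40, 0.39 and 1.93 and limma adjusted p of 1.0. For Gdf5 A_55_P2131831 the effect of 2.42 missed the threshold at 2.34 (quantile), 0.42 (normexp), 2.25 (floor), 2.42 (no filter, day as a number), 2.48 (deposited table) and 2.31 to 2.58 (days left out). Gdf5 A_66_P127070 and Gdf7 passed at 2.43 and 1.96 (median scaling), 2.16 and 1.28 (repaired normexp), and 2.40 and 1.93 (all 8 arrays, robust variance, random block, slide block). Normexp as planned gave Gdf7 -0.0081 and shifted the median of all probes to -0.45, since up to 10 spots of bright local background per array drove its fit (fitted background -1603 and -1251 in WT cells of days 2 and 6). Its repair, which leaves those spots out, was chosen after seeing the data.

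Slopes past the threshold fell to 0 with normexp and ran from 0 to 12145 with days left out. Those of the Gdf5 probes were 0.17 and 0.29 with normexp, 0.62 and 0.57 without a filter, 0.53 for A_55_P2131831 with the higher floor, and -0.15 to 0.88 and -0.047 to 0.76 with days left out. Gdf6 had 0.18 with normexp and 0.13 to 0.55 with days left out. Gdf7 had 0.077 with normexp, 0.37 with the higher floor or no filter, and -0.13 to 0.53 with days left out. The Dnmt3a slope turned to -0.20 without day 2. Interactions, none of them past the threshold, changed sign for Gdf5 A_55_P2131831 at 0.075 (quantile), 0.013 (median), 0.43 (normexp), 0.11 (repaired), 0.17 (floor) and within -0.10 to 0.054 (days left out), for A_66_P127070 at 0.38 and Gdf6 at 0.056 (normexp), and within -0.34 to 0.030 for Gdf6 and -0.078 to 0.13 for Gdf7 (days left out). With days left out, list medians ran from 0.11 to 0.19 for the other ligands, -0.18 to -0.028 for the receptors, -0.20 to 0.046 for the antagonists, -0.076 to 0.12 for the targets, -0.091 to 0.13 for the joint, -0.27 to 0.37 for the fibro-adipogenic, -0.30 to 0.030 for the Schwann and roof plate, -0.48 to 0.35 for the smooth muscle and -0.081 to 0.0059 for the myogenic genes, while the Smads, denervation, endothelial and leukocyte lists kept their sign. The median of the Gdf7 neighbours ran from -0.057 to 0.026. Except for normexp, the cause was not tested.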
